A study of Mus musculus with 6 samples.

Results

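The genes described here are 8 enzymes that make or break down the galactolipids, ceramides and related sphingolipids of myelin: Ugt8a, Fa2h, Gal3st1, Cers2, Galc, Arsa, Sgms1 and Ugcg. They were taken by symbol from the 35857 gene rows of 6 expression tables, and all 8 were found and tested among the 14994 genes that averaged at least 1 TPM. The tables hold TPM, a transcript level scaled by gene length and library total. Cerebral cortex was taken on postnatal day 7 from C57BL/6 mice, namely 3 Qk-/- brains (Qk_KO) and 3 wild type brains (Cont), with 1 library of polyadenylated RNA per brain. Quaking, the product of Qk, binds RNA in glia and neural progenitors, and the series concerns its role when neural stem cells stop producing neurons and begin to produce glia. The sources used here do not give the allele or say whether it acts in all cells of the cortex. They also do not say whether the mice were littermates, and the tests rest on the variation among these 6 brains alone.

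Ceramide is the branch point of sphingolipid synthesis. In oligodendrocytes Ugt8a adds galactose to it, Cers2 provides very long acyl chains, Fa2h hydroxylates them and Gal3st1 sulfates the product, so that galactosylceramide and sulfatide become the characteristic lipids of myelin. Ugcg turns the same ceramide into glucosylceramide, the root of the gangliosides of neurons, and Sgms1 turns it into sphingomyelin. In lysosomes Arsa removes the sulfate of sulfatide and Galc the galactose of galactosylceramide. In the mouse cortex most myelin forms at later ages than the one sampled here.

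Quaking is known to bind RNA at the hexamers ACTAAC and ACTAAT (written with T for U), so the annotated 3' UTRs of the 8 genes were searched for these letters on the transcript strand. The elements are shown because the mutated gene encodes the protein that reads them. A total of 6 elements lay in the 3' UTRs of 3 genes, Ugt8a, Galc and Gal3st1, and no match was found in the longest annotated 3' UTR of Fa2h, Cers2, Arsa, Sgms1 or Ugcg. Each is printed 5′ to 3′ with up to 12 bases on either side, in GRCm38 coordinates, with the hexamer in capitals; positions count from 1 at the first base after the stop codon.
Ugt8a position 1284 (chr3:125865915-125865944, minus strand): ttaatgtcactcACTAACatggcagagttg
Ugt8a position 1620 (chr3:125865579-125865608, minus strand): ttgacaatagacACTAACtggatgattaag
Galc position 290 (chr12:98203634-98203663, minus strand): tgcagccttcgcACTAATaccaaggtagct
Galc position 586 (chr12:98203338-98203367, minus strand): cctcattaataaACTAACactgaagccatt
Galc position 1635 (chr12:98202294-98202318, minus strand): agtcatcacagcACTAACatacaaa
Gal3st1 position 169 (chr11:3999223-3999252, plus strand): gagaggtatttaACTAATtatgccattttt
The 3' UTR of Ugt8a is 1945 bases long, and 46.2% of the 4303 tested genes with a 3' UTR at least that long had an element within as many bases. For Galc, with 1647 bases, that share was 41% of 5227 genes, and for Gal3st1, with 260 bases, it was 6.94% of 11880 genes. Among the 5 genes with no match, these shares were 33.3% for Fa2h, 22.2% for Cers2, 20.9% for Arsa, 40.4% for Sgms1 and 53.7% for Ugcg. Over all 13501 tested genes with an annotated 3' UTR, 34.6% held an element, so 3 of 8 is near the background. A match of letters is a description and was not tested for binding.

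Each library held between 18971 and 19710 genes above 0 TPM. Read depth cannot be recovered from TPM and is unknown. Qk was at 14.6, 15.2 and 15.4 TPM in Qk_KO cortex, against 36.5, 43.2 and 41.3 TPM in Cont cortex (log2 change −1.36, limma adjusted p = 0.000855), lower in every library labelled Qk_KO, where transcript of the gene was still measured. In bulk tissue, fewer cells of a type and less RNA per cell cannot be told apart.

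None of the 8 genes passed an adjusted p of 0.05 over all genes (limma on log2(TPM + 1), Benjamini-Hochberg), a threshold that 0.387% of all tested genes passed. Ugt8a, Fa2h and Galc lay lower in every Qk_KO library than in any Cont library. At an unadjusted p under 0.05, these 3 of the 8 genes were lower and 0 were higher; over all tested genes 8.72% reached that p in either direction and 5.30% reached it downwards. A complete separation downwards was seen in 8.98% of all tested genes. The median log2 change of the 8 genes was −0.10, against −0.03 over all genes tested. These enzymes were picked with earlier results of the same libraries known, so the count is a description of them.

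**Figure D1:**
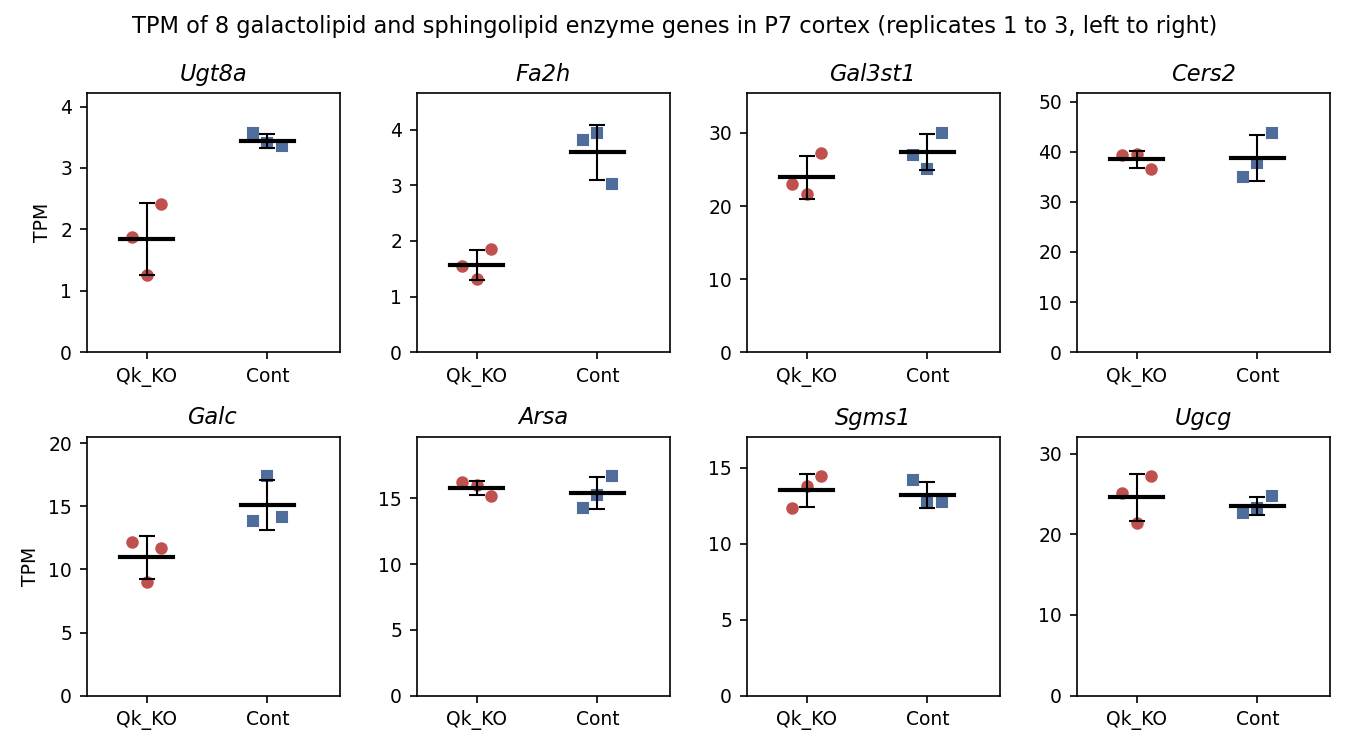
TPM of each of the 8 enzyme genes in the 3 Qk_KO libraries (red circles) and the 3 Cont libraries (blue squares), with the mean and SD as a bar and whiskers; each panel has its own axis from 0. The groups are apart in Ugt8a, Fa2h and Galc and overlap in the other 5 genes.

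Ugt8a, the ceramide galactosyltransferase (chr3:125865271-125938619, minus strand, GRCm38), was at 1.87, 1.25 and 2.41 TPM in Qk_KO replicates 1, 2 and 3, against 3.57, 3.41 and 3.35 TPM in Cont replicates 1, 2 and 3. The Cont brains lay close together and the Qk_KO brains spread more widely below them. The mean was 1.84 ± 0.581 TPM in Qk_KO and 3.44 ± 0.114 TPM in Cont cortex (SD, n = 3 each), a ratio of 0.535. On the log2(TPM + 1) scale the change was −0.66 (95% interval −1.13 to −0.20; limma adjusted p = 0.359, unadjusted p = 0.0106), which understates the ratio of a gene at so low a level.

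Fa2h, the fatty acid 2-hydroxylase (chr8:111345135-111393824, minus strand), had the most negative log2 change of the 8. It was at 1.54, 1.32 and 1.86 TPM in Qk_KO libraries and at 3.81, 3.94 and 3.03 TPM in Cont libraries. Every Qk_KO brain was below every Cont brain, and the lowest Cont value was that of replicate 3. The mean was 1.57 ± 0.272 TPM in Qk_KO and 3.59 ± 0.492 TPM in Cont cortex (SD, n = 3 each), a ratio of 0.438 (log2 change −0.84, interval −1.27 to −0.40; limma adjusted p = 0.169). Its unadjusted p of 0.00189 stood in place 167 among the 14994 genes.

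Gal3st1, the cerebroside sulfotransferase that makes sulfatide (chr11:3983636-3999326, plus strand), was far more abundant than the transferase upstream of it. It was at 23.0, 21.6 and 27.3 TPM in Qk_KO libraries, against 26.9, 25.1 and 30.0 TPM in Cont libraries. The groups overlapped, since Qk_KO replicate 3 exceeded Cont replicates 1 and 2. The log2 change was −0.19 with an interval of −0.44 to 0.07 (limma adjusted p = 0.709) and the Qk_KO mean was 0.876 of the Cont mean.

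Cers2, the ceramide synthase for very long acyl chains (chr3:95314791-95323599, plus strand), was at 39.3, 39.5 and 36.5 TPM in Qk_KO libraries and at 34.9, 37.7 and 43.8 TPM in Cont libraries. The Qk_KO values lay inside the Cont range. The log2 change was −0.01, with an interval of −0.23 to 0.22 (limma adjusted p = 0.99). Other genes of the family were measured in the same libraries, of which Cers1, known for C18 ceramide in neurons, averaged 109 ± 16.7 TPM in Qk_KO and 123 ± 10.3 TPM in Cont cortex. Cers5 averaged 104 ± 7.81 and 102 ± 8.25 TPM, Cers4 32.1 ± 2.91 and 35.2 ± 0.922 TPM, and Cers6 12.1 ± 0.563 and 12.5 ± 0.962 TPM, in Qk_KO and Cont cortex (SD, n = 3 each). In mean level Cers2 stood below Cers1 and Cers5 and above Cers4 and Cers6 in either genotype, and none of these 5 genes passed the threshold. Setdb1 and an antisense transcript, both on the minus strand, overlap Cers2 in the annotation, and it is not stated whether the authors' counting used strand, so reads of overlapping genes may not be told apart.

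Of the lysosomal pair that degrades the galactolipids, neither passed the threshold, and the difference between them was not tested. Galc, the galactosylceramidase lost in Krabbe disease (chr12:98202294-98259459, minus strand), was at 12.1, 9.03 and 11.7 TPM in Qk_KO libraries, against 13.8, 17.4 and 14.1 TPM in Cont libraries. The groups did not overlap. The mean was 10.95 ± 1.68 TPM in Qk_KO and 15.1 ± 1.97 TPM in Cont cortex (SD, n = 3 each; log2 change −0.43, interval −0.76 to −0.11, limma adjusted p = 0.399, unadjusted p = 0.0145). Without Cont replicate 2, which was the highest, the log2 change was −0.34 with an unadjusted p of 0.0601 by limma, above 0.05.

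Arsa, the arylsulfatase lost in metachromatic leukodystrophy (chr15:89472476-89477425, minus strand), was at 16.2, 16.0 and 15.1 TPM in Qk_KO libraries and at 14.2, 15.3 and 16.7 TPM in Cont libraries. Its Qk_KO values all lay inside the Cont range. The log2 change was 0.04 (interval −0.19 to 0.27; limma adjusted p = 0.955). Each of these 2 genes overlaps an antisense gene in the annotation, Gm47439 for Galc and C230037L18Rik for Arsa.

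The enzymes that turn ceramide into other lipids, Sgms1 and Ugcg, showed overlapping groups. Sgms1, the Golgi sphingomyelin synthase (chr19:32122727-32389714, minus strand), was at 12.3, 13.8 and 14.4 TPM in Qk_KO libraries and at 14.2, 12.7 and 12.7 TPM in Cont libraries. The log2 change was 0.03 (interval −0.22 to 0.28; limma adjusted p = 0.965). In the annotation, AC113485.1 on the same strand and 2700046G09Rik on the opposite strand overlap Sgms1. Ugcg, the glucosylceramide synthase (chr4:59189257-59222833, plus strand), was at 25.1, 21.4 and 27.2 TPM in Qk_KO libraries and at 22.6, 23.2 and 24.7 TPM in Cont libraries. The Qk_KO brains spread on both sides of the Cont brains, with a log2 change of 0.06 (interval −0.19 to 0.30; limma adjusted p = 0.932). For Cers2, Arsa, Sgms1 and Ugcg the intervals bound a change in either direction to at most 0.30 on the log2 scale.

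**Figure D2:**
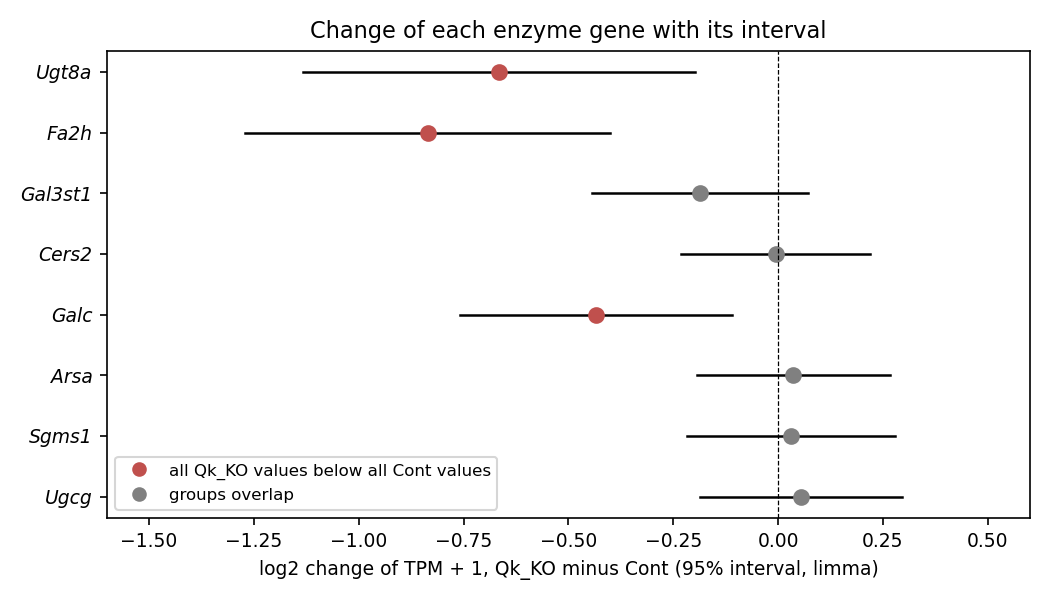
Log2 change of TPM + 1, Qk_KO minus Cont, of each enzyme gene (point) with its 95% interval from limma (line); red points are genes whose Qk_KO values all lay below the Cont values. The intervals of Ugt8a, Fa2h and Galc end below 0, at −0.20, −0.40 and −0.11, and those of the other 5 genes span 0.

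By level in TPM, which is scaled by length and so can be set side by side between genes, Cers2 was highest in both genotypes (38.5 ± 1.68 TPM in Qk_KO and 38.8 ± 4.54 TPM in Cont cortex; SD, n = 3 each). In Qk_KO cortex Ugcg and Gal3st1 came next with overlapping ranges, followed by Arsa, Sgms1 and Galc, each apart from its neighbour, and by Ugt8a and Fa2h, whose ranges overlapped. In Cont cortex the order was Gal3st1, Ugcg, then Arsa, Galc and Sgms1, each overlapping its neighbour, then Fa2h and Ugt8a, which overlapped. Ugt8a and Fa2h stood at the 13.0 and 12.6 percentile of mean level among the tested genes, while Cers2 stood at the 69.7 percentile. The 3 Qk_KO brains ranked alike in Ugt8a, Fa2h, Gal3st1 and Ugcg, with replicate 3 highest and replicate 2 lowest. The other 4 enzyme genes each had another order. Among marker genes described below, Gpr17 and Bcas1 had the same order as Ugt8a, while Mbp and Cnp did not. How often that order occurs over all tested genes was not counted.

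Ratios between pairs of these genes within a library do not depend on how the library was scaled, and are given as values with no test. Ugcg and Ugt8a both use ceramide. In bulk cortex their transcripts may lie in different cells, so their ratio does not describe the use of ceramide within a cell. Ugcg had 13.4, 17.2 and 11.3 times the TPM of Ugt8a in Qk_KO libraries, against 6.34, 6.81 and 7.38 times in Cont libraries. No lipid was measured. The log2 ratio of Ugt8a over Ugcg averaged −3.78 ± 0.304 in Qk_KO and −2.77 ± 0.110 in Cont cortex (SD, n = 3 each). Sgms1 was at 6.60, 11.02 and 5.99 times Ugt8a in Qk_KO and 3.98, 3.71 and 3.80 times in Cont libraries.

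Gal3st1 had 12.3, 17.3 and 11.3 times the TPM of Ugt8a in Qk_KO libraries and 7.55, 7.36 and 8.96 times in Cont libraries, so sulfotransferase transcripts were the more abundant in every brain. Cers2 had 25.5, 30.0 and 19.6 times the TPM of Fa2h in Qk_KO libraries and 9.15, 9.57 and 14.4 times in Cont libraries. The groups did not overlap in either of these pairs. The 3 separate pairs that hold Ugt8a share its lower values in Qk_KO libraries and are not independent of each other. The pair of Fa2h and Cers2 likewise carries the lower values of Fa2h described above. The groups overlapped in both pairs of a synthetic and a degrading enzyme. The log2 ratio of Ugt8a over Galc averaged −2.61 ± 0.298 in Qk_KO and −2.13 ± 0.202 in Cont cortex. That of Gal3st1 over Arsa averaged 0.60 ± 0.222 in Qk_KO and 0.83 ± 0.104 in Cont cortex (SD, n = 3 each). Galc was itself lower in every Qk_KO library than in any Cont library. Rates of synthesis and breakdown were not measured.

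**Figure D3:**
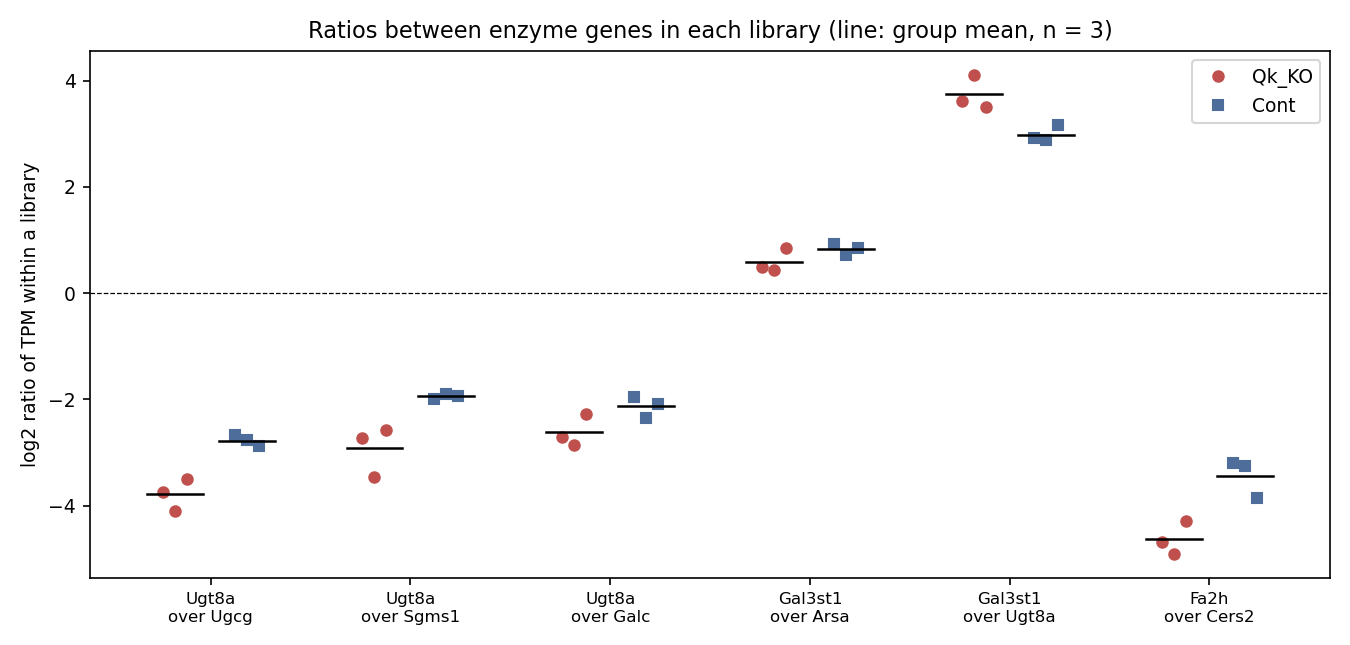
Log2 ratio of the TPM of 2 genes in each library, for 6 pairs, with Qk_KO libraries as red circles, Cont libraries as blue squares and the group mean as a line (n = 3 each). The groups are apart in 4 of the 6 pairs and overlap in Ugt8a over Galc and in Gal3st1 over Arsa.

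Around the 8 enzymes, 72 other genes of sphingolipid metabolism were listed by step, of which 64 were tested. None passed the adjusted threshold by limma, while 6 were lower and 0 higher at an unadjusted p under 0.05, against 5.30% lower and 3.42% higher over all tested genes. Papss2 and Neu4, 2 of the 6, reached the 1 TPM filter through their Cont level alone and so could be counted only as lower. The Qk_KO values lay wholly below the Cont values in 10 of the 64 genes and above them in 0, against 8.98% below and 5.20% above over all tested genes, and the median log2 change was −0.04. The genes named below at an unadjusted p under 0.05 were singled out after their values were seen.

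Among 7 genes that supply the donors for galactosylation and sulfation, 3 lay wholly lower in Qk_KO cortex, Papss2, Papss1 and Slc35b2, where 8.98% of all tested genes did (median log2 change of the list −0.15). Slc35b3, also a carrier of the sulfate donor, overlapped between the groups, at 10.2 to 12.4 TPM in Qk_KO and 10.4 to 14.8 TPM in Cont libraries. Papss2, a synthase of the sulfate donor PAPS, was at 0.53, 0.74 and 0.67 TPM in Qk_KO libraries and at 2.84, 2.10 and 1.78 TPM in Cont libraries. Its Qk_KO mean was under 1 TPM, so it was tested through its Cont level (log2 change −0.97, limma adjusted p = 0.185). Papss1, the abundant synthase of the same donor, averaged 143 ± 4.99 TPM in Qk_KO and 162 ± 1.93 TPM in Cont cortex (log2 change −0.18, limma adjusted p = 0.455). Slc35b2, which carries that donor into the Golgi, averaged 105 ± 5.09 TPM in Qk_KO and 118 ± 8.49 TPM in Cont cortex (log2 change −0.165, limma adjusted p = 0.608).

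Of 17 genes of ceramide synthesis, 13 were tested and 1, Degs1, the desaturase that completes ceramide, was lower at an unadjusted p under 0.05 (67.3 ± 7.04 TPM in Qk_KO and 83.3 ± 10.9 TPM in Cont cortex; log2 change −0.30, limma adjusted p = 0.485). The median of this list was −0.06. Of 8 genes that make very long acyl chains, 7 were tested with a median of 0.05, and the most abundant, Tecr and Hacd3, averaged 1212 ± 150 and 94.1 ± 8.77 TPM in Qk_KO cortex and 1134 ± 117 and 97.8 ± 1.02 TPM in Cont cortex. In the sphingomyelin list the median of 5 tested genes was −0.0005, and the sphingomyelinases Smpd1 and Smpd3 averaged 102 ± 9.06 and 103 ± 12.9 TPM in Qk_KO cortex, against 103 ± 1.80 and 99.8 ± 4.63 TPM in Cont cortex. Sgms2, the second sphingomyelin synthase, was too low for the test, at 0.17, 0.26 and 0.33 TPM in Qk_KO libraries and 0.57, 0.86 and 0.98 TPM in Cont libraries, which did not overlap.

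Of 20 genes of lysosomal breakdown and the ceramidases, 18 were tested and 3 were lower at an unadjusted p under 0.05 (median of the list −0.05). Neu4, a sialidase, was at 0.77, 0.33 and 0.59 TPM in Qk_KO libraries, against 1.80, 2.08 and 2.59 TPM in Cont libraries, and like Papss2 was tested through its Cont level (log2 change −1.02, limma adjusted p = 0.177). Gm2a, the activator that presents ganglioside GM2 for cleavage, averaged 30.7 ± 3.06 TPM in Qk_KO and 41.0 ± 2.51 TPM in Cont cortex (log2 change −0.41, limma adjusted p = 0.185). Npc1, which exports cholesterol from lysosomes, averaged 14.7 ± 1.89 TPM in Qk_KO and 20.1 ± 1.38 TPM in Cont cortex (log2 change −0.43, limma adjusted p = 0.286). Psap, the precursor of the saposins that help Galc and Arsa reach their lipids, averaged 998 ± 30.0 TPM in Qk_KO and 1004 ± 50.5 TPM in Cont cortex, and Hexa averaged 60.7 ± 2.30 and 61.5 ± 4.40 TPM. None of the 14 genes downstream of Ugcg, which build gangliosides and other glycolipids, reached an unadjusted p under 0.05, and their median log2 change was −0.03; B4galnt1 averaged 137 ± 7.76 TPM in Qk_KO and 136 ± 9.46 TPM in Cont cortex, and St3gal5 89.7 ± 6.83 and 82.6 ± 5.34 TPM.

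**Figure D4:**
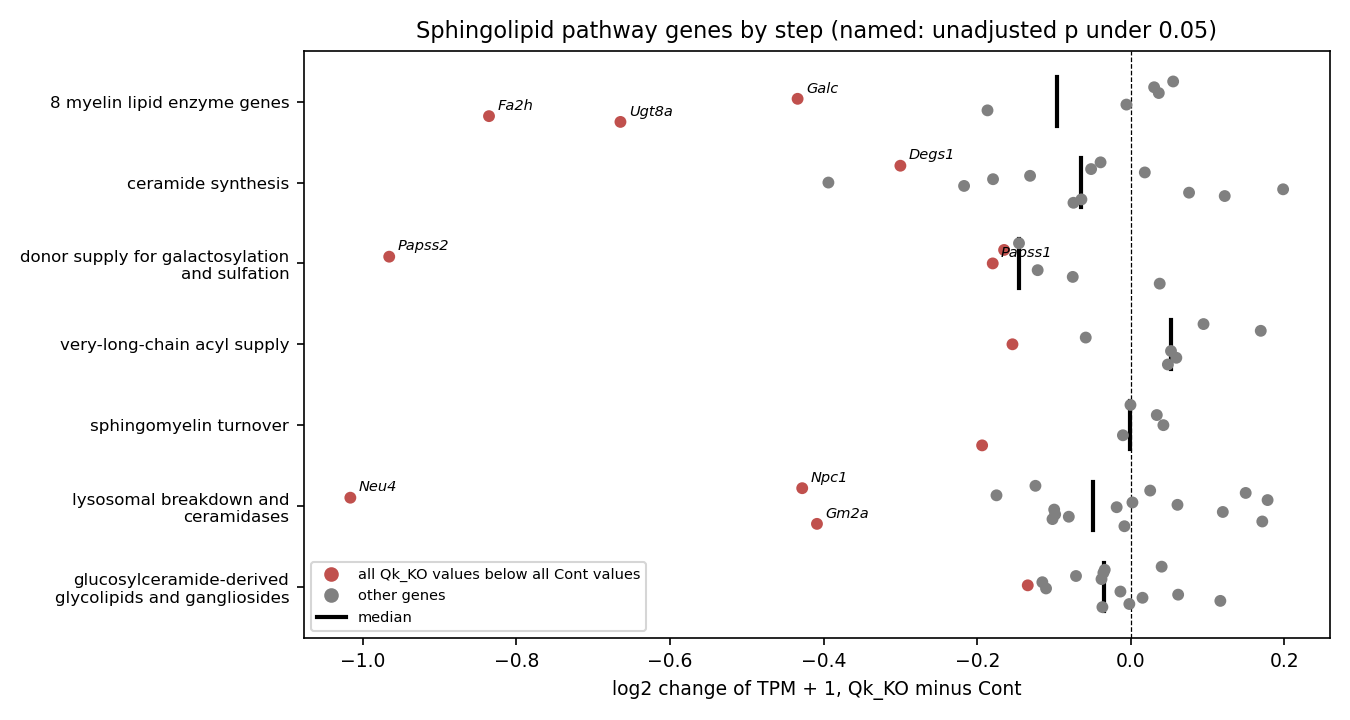
Log2 change of TPM + 1, Qk_KO minus Cont, of the 8 enzyme genes and of 64 other tested genes of sphingolipid metabolism by step, with the median of each list as a bar; red points are genes whose Qk_KO values all lay below the Cont values, and genes with an unadjusted p under 0.05 are named. None passed the adjusted threshold, and list medians ran from −0.15 to 0.05.

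General lysosomal genes were set beside Galc and Arsa. Of 12, 4 were lower at an unadjusted p under 0.05 and 0 were higher, against 5.30% and 3.42% of all tested genes (median log2 change −0.09). Lamp1, a lysosomal membrane protein, averaged 293 ± 5.84 TPM in Qk_KO and 359 ± 19.5 TPM in Cont cortex (log2 change −0.29, limma adjusted p = 0.178), and the protease gene Ctsb averaged 416 ± 28.9 TPM in Qk_KO and 385 ± 37.4 TPM in Cont cortex. Atp6v0c, a proton pump subunit, was at 61.6, 79.9 and 125 TPM in Qk_KO libraries, against 139, 918 and 886 TPM in Cont libraries. It did not pass with all libraries (limma adjusted p = 0.229) and passed without Cont replicate 1 (limma adjusted p = 0.000943). Processed pseudogenes of Atp6v0c are annotated, so how its reads were assigned is uncertain.

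Marker genes of several cell types differed between the same libraries. The summed TPM of 11 myelin protein genes was 144 to 163 in Qk_KO libraries and 225 to 241 in Cont libraries, and 2 of the 8 tested, Mbp and Cnp, fell (log2 change −0.85 and −0.76, limma adjusted p = 0.00153 and 0.0152). Mbp averaged 51.4 ± 1.85 TPM in Qk_KO and 93.5 ± 1.504 TPM in Cont cortex, and Cnp 53.3 ± 6.66 and 90.9 ± 5.40 TPM, so these 2 genes made up nearly all of the gap in the sums. The other 6 tested genes did not pass and had log2 changes from −0.16 to 0.29, with Aspa wholly higher in Qk_KO cortex (0.19), and the median of the list was −0.10. The highest was that of Mog, at a mean of 1.23 TPM in Qk_KO and 0.817 TPM in Cont cortex. Mog reached the 1 TPM filter through its Qk_KO level alone and so could be counted only as higher. The summed TPM of 9 genes of newly formed oligodendrocytes was 296 to 312 in Qk_KO libraries and 401 to 439 in Cont libraries; Bcas1, Gpr17 and Sirt2 fell (limma adjusted p = 0.0103, 0.00963 and 0.0277). The other 6 did not pass. Nkx2-2 had a log2 change of 0.70 (limma adjusted p = 0.53), Tcf7l2 0.09 and Myrf −0.11. Enpp6, Itpr2 and Fyn had −0.67, −0.32 and −0.16. Of the 9 genes, 7 had a negative log2 change, and the median was −0.32. Sirt2, the gene of widest gap in TPM among them, averaged 123 ± 4.27 TPM in Qk_KO and 180 ± 15.9 TPM in Cont cortex. The sum of 8 precursor genes was higher, at 385 to 417 in Qk_KO libraries and 326 to 365 in Cont libraries. Olig2 rose (log2 change 0.65, limma adjusted p = 0.0152). Olig1 was wholly higher without passing, at 185 ± 14.3 TPM in Qk_KO and 138 ± 13.2 TPM in Cont cortex. C1ql1 and Pdgfra were wholly lower in Qk_KO cortex without passing (log2 change −0.73 and −0.30, limma adjusted p = 0.137 and 0.241). Of the 8 precursor genes, 6 had a negative log2 change, and the median was −0.12. The summed TPM of 8 astrocyte genes was 621 to 673 in Qk_KO libraries and 835 to 887 in Cont libraries, with falls of Slc1a3, S100b and Gja1 (limma adjusted p = 0.000494, 0.00257 and 0.0413). Slc1a3 made up most of that gap, at 112 ± 4.86 TPM in Qk_KO and 265 ± 11.3 TPM in Cont cortex. Aldh1l1 of the same list was wholly higher in Qk_KO cortex without passing (log2 change 0.47, limma adjusted p = 0.139), and Aqp4 had a log2 change of −0.08. Of the 8 astrocyte genes, 7 had a negative log2 change, and the median was −0.33. The sum of 8 microglial genes was 223 to 227 in Qk_KO libraries and 205 to 219 in Cont libraries, with 0 of the 8 past the threshold. Of these 8, 4 had a negative and 4 a positive log2 change, and the median was 0.0056. C1qb was wholly higher in Qk_KO cortex, at 89.1 ± 4.07 TPM against 75.0 ± 8.26 TPM in Cont cortex. P2ry12 was wholly lower, at 9.29 ± 0.321 TPM in Qk_KO and 12.1 ± 1.06 TPM in Cont cortex. No gene of these 5 lists was at 0 in all libraries. The part of these cells in the values of Ugt8a, Fa2h and Galc was not tested.

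Sums of the lists for neurons, endothelium, mural and meningeal cells, choroid plexus and ependyma, and red blood cells overlapped between the groups. The neuron markers were at 4072 to 4322 TPM over 8 genes in Qk_KO libraries and 3703 to 4367 TPM in Cont libraries, led by Tubb3. The summed TPM of 4 markers of Schwann cells, which make the same lipids in nerve, was 4.65 to 6.17 in Qk_KO libraries and 3.93 to 6.13 in Cont libraries, and Pmp2 among them was listed at 0 in all 6. Only 2 of the 4 were tested, and they differed in sign. Egr2 was wholly higher in Qk_KO cortex, at 3.55 ± 0.861 TPM against 2.05 ± 0.379 TPM in Cont cortex (log2 change 0.57, limma adjusted p = 0.468). Prx had a log2 change of −0.26. The sum therefore gives no level of Schwann cells. Foxj1, of ciliated cells, rose (log2 change 0.86, limma adjusted p = 0.0428), and was the single one of 6 genes of choroid plexus and ependyma past the threshold. The other 5 had negative log2 changes, among them Ccdc153, also of ciliated cells (−0.08), and the median of the list was −0.32.

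The genes whose pattern over the 6 libraries was most like that of Fa2h and Ugt8a, the 2 members of smallest p, were sought among 11547 genes averaging 5 TPM or more, as the smallest root mean square difference of log2(TPM + 1) centred on each gene. For Fa2h they were Vcam1, Bcas1, Acsbg1, Gjb6 and Mbp (difference 0.110 to 0.131). For Ugt8a they were Tom1l1, Vcam1, Pla2g3, Ada and Plcb3 (0.0957 to 0.112). Vcam1, an adhesion molecule, stood in both lists and was at 16.5, 13.5 and 20.3 TPM in Qk_KO libraries, against 33.0, 29.0 and 28.5 TPM in Cont libraries. The search favours genes that follow the gap of the member itself, so no test of them is given.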

How the data were processed

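The authors deposited 1 TPM value per gene for each of 6 libraries, per the file headers, and these sum to 1000000 in each. Per the submitters' processing notes, STAR 2.4.1d, RSEM 1.3.0 and builds mm10 and GRCm38.p4 were used; the sources used here give neither their order nor the gene annotation or strand setting. Per the labels' protocols, libraries of polyadenylated RNA were made with an Ion kit and read on the Ion Proton. TPM keeps no depth, so no interval from counts was computed, and since each library sums to the same total, gains in some genes reduce the rest.

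TPM were used as deposited. Genes averaging 1 TPM or more were fitted on log2(TPM + 1) with limma 3.58.1 in R 4.3.3 (eBayes with trend, group as the only term). The test was checked on simulated data, with changes planted only in genes more abundant than Ugt8a and Fa2h. That check does not cover the level of these genes. Benjamini-Hochberg adjustment of the two-sided p ran over 14994 genes. The design text names 6 separate brains, and 50 to 75 tested genes had identical values in any of the 15 pairs. Members and lists were chosen with earlier results of these data known. Named were all members, each pathway list's genes past the threshold or else its 2 most abundant, marker genes past the threshold, and the 5 genes of nearest pattern; others were picked after their values were seen. Coordinates and 3' UTRs (the longest per gene) came from GENCODE M21 on GRCm38. Alternatives were other pseudocounts, filters, scaling, variance models, a replicate block and leaving out each library. Some marker genes and the ratios to them are not reported here.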

Additional observations from a re-analysis of the deposited data

How the results depend on the processing

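None of the 8 enzyme genes passed the adjusted threshold in any of the 14 alternatives. With a mean of at least 5 TPM, Ugt8a and Fa2h were not tested. Over its alternatives the adjusted p ran from 0.262 to 0.63 for Ugt8a, from 0.0869 to 0.399 for Fa2h and from 0.359 to 0.607 for Galc, always with a negative log2 change; without 1 library the unadjusted p of Galc ran from 0.0131 to 0.0601 and that of Ugt8a from 0.00625 to 0.0349. Cers2 turned positive with median-of-ratios scaling (0.0221) and without Cont replicate 3 or Qk_KO replicate 3; leaving out 1 library gave log2 changes from −0.0773 to 0.0824 for Cers2, −0.0153 to 0.0915 for Arsa, −0.0152 to 0.0898 for Sgms1 and −0.0177 to 0.146 for Ugcg. The count of all genes past the threshold, 58, was 37 with no filter on low values, 28 with eBayes without trend, 38 with a replicate block, 74 with a mean of at least 5 TPM, 72 with robust eBayes and 27 to 59 without 1 library. The block called 0 members. The labels do not say whether the replicate numbers pair brains. Deviations of same-numbered libraries correlated at 0.0134 to 0.035, and each library correlated best with its own number. With 3 libraries per group, these values cannot decide whether the brains were paired. The count of other pathway genes past it, 0, was 0 to 1 without 1 library, the 1 being Atp6v0c without Cont replicate 1. The cause of these moves was not tested. The 4 gene pairs with separate ratios became 4 to 6 without 1 library. Leaving out a library cannot end a separation, so this count could only stay or rise and is no check of it. Depth is unknown, so the counting error of genes at a few TPM, such as Ugt8a and Fa2h, cannot be given.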
